A study of Homo sapiens with 8 samples.

Results

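The HOXC cluster is 1 of the HOX gene clusters of the human genome, and it holds HOXC5 itself, the gene whose product was profiled here. Its 9 genes are HOXC13, HOXC12, HOXC11, HOXC10, HOXC9, HOXC8, HOXC6, HOXC5 and HOXC4, in this order along the plus strand of chromosome 12. A peak was counted when its summit, the position of highest signal within it, lay in the body of one of these genes or within 20 kb of one of their transcriptional start sites (TSS), which gave a single interval of 155 kb at chr12:54312615-54467619 (hg19). By this rule 20 of 223511 peaks in 4 peak lists belonged to the cluster.

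HOX proteins are homeodomain transcription factors that give body segments their identity, and a cluster's genes are switched on in an order that follows their position. On their own they recognise short AT-rich words. With cofactors of the TALE class, such as Pbx and Meis proteins, they bind longer and more selective sites, and several HOX genes are known to be controlled by HOX proteins, including their own product.

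The study profiled DNA binding by ChIP-Seq in PC-3, a prostate cancer cell line. Endogenous HoxC5 was immunoprecipitated from cells labelled as endogenous (replicates 1 and 2). HoxC5 was also immunoprecipitated from cells that overexpress Hoxc5, and Pbx4 from cells that overexpress Pbx4, with 1 library each. The overexpressed proteins came from Flag-tagged cDNA delivered by lentivirus, so these cells carried the coding sequence of HoxC5 or Pbx4 at added positions in the genome, while the antibodies were raised against HoxC5 and Pbx4 rather than the tag. Each of the 4 lists was called separately and holds, for each peak, a fold enrichment over the local background and a −log10 q value. With 1 library for each overexpressed protein there was no replicate test between conditions, and what follows compares these lists. Nothing in the labels says whether the endogenous replicates came from separate cultures.

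No endogenous HoxC5 peak lay in the HOXC interval, in either replicate. The lists of endogenous replicates 1 and 2 held 2525 and 170 peaks. At the density of each list over the genome, 0.137 and 0.00922 peaks would fall on an interval of this length, so lists of this length would rarely have a peak here. A count of 0 allows up to 0.119% of the peaks of replicate 1 and 1.76% of those of replicate 2, as counting error only. By the same rule 11.0% of 20163 protein-coding genes had a peak of replicate 1 and 0.967% a peak of replicate 2, against 0 of the 9 HOXC genes in both. The 9 genes lie in a single interval with overlapping windows, so they are not 9 independent counts. The endogenous peak nearest to the interval lay 0.538 Mb below its lower end in replicate 1 (chr12:53774208-53774456, fold enrichment 3.99) and 22.7 Mb below it in replicate 2 (chr12:31624893-31625035, fold enrichment 4.99). Occupancy of the HOXC genes by HoxC5 at its endogenous level was thus not detectable in these lists.

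When HoxC5 was overexpressed, 9 of its 67196 peaks lay in the HOXC interval, and 11 of the 153620 Pbx4 peaks did. Each of the 9 genes had at least 1 peak of either list in its body or within 20 kb of a TSS, a count to be read against 79.6% of all protein-coding genes with a HoxC5 peak and 85.2% with a Pbx4 peak by the same rule. The genes sit close together and share peaks within 20 kb of their starts. A HOXC gene had a median of 4.0 HoxC5 peaks by the rule (range 1 to 8), beside a median of 2.0 over all protein-coding genes, and a median of 5.0 Pbx4 peaks (range 1 to 8) beside 4.0.

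Taken as one interval, the cluster held 5.81 HoxC5 peaks per 100 kb, where the whole list held 2.35 per 100 kb on the main chromosomes, a ratio of 2.47. Among peaks with a fold enrichment of at least 5 the ratio was 1.51 (4 HOXC peaks) and among those with a −log10 q of at least 5 it was 1.89 (6 HOXC peaks). Pbx4 peaks came to 7.10 per 100 kb against 5.37, a ratio of 1.32, which was 1.17 and 1.56 under the same limits. HoxC5 peaks covered 1.64% of the bases of the interval and 0.646% of the genome. Pbx4 peaks covered 2.09% of the interval and 1.97% of the genome. The number of peaks that made up these densities was small, and no test was run on them. The interval consists of gene bodies and sequence within 20 kb of a TSS, whereas the density over the genome had no such limit. This difference was not accounted for in the ratios.

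The other HOX clusters, measured by the same rule, stood on both sides of HOXC. HOXA held 63 HoxC5 and 38 Pbx4 peaks (43.7 and 26.4 per 100 kb), HOXB held 25 and 21 (10.5 and 8.83 per 100 kb), and HOXD held 2 and 5 (1.47 and 3.68 per 100 kb). In both lists the density of HOXC lay between those of HOXB and HOXD. The only endogenous peaks over any HOX cluster were 2 of replicate 1 at HOXA. Of the 30 genes in the other clusters, 26 had an overexpressed HoxC5 peak, 30 a Pbx4 peak and 8 an endogenous peak of replicate 1. Those 8 genes were all counted through the same 2 peaks at HOXA. Of 9 TALE cofactor genes 9 had a HoxC5 peak, 9 a Pbx4 peak and 3 an endogenous peak of replicate 1. The shares over all protein-coding genes were 79.6%, 85.2% and 11.0% in the same order.

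**Figure D1:**
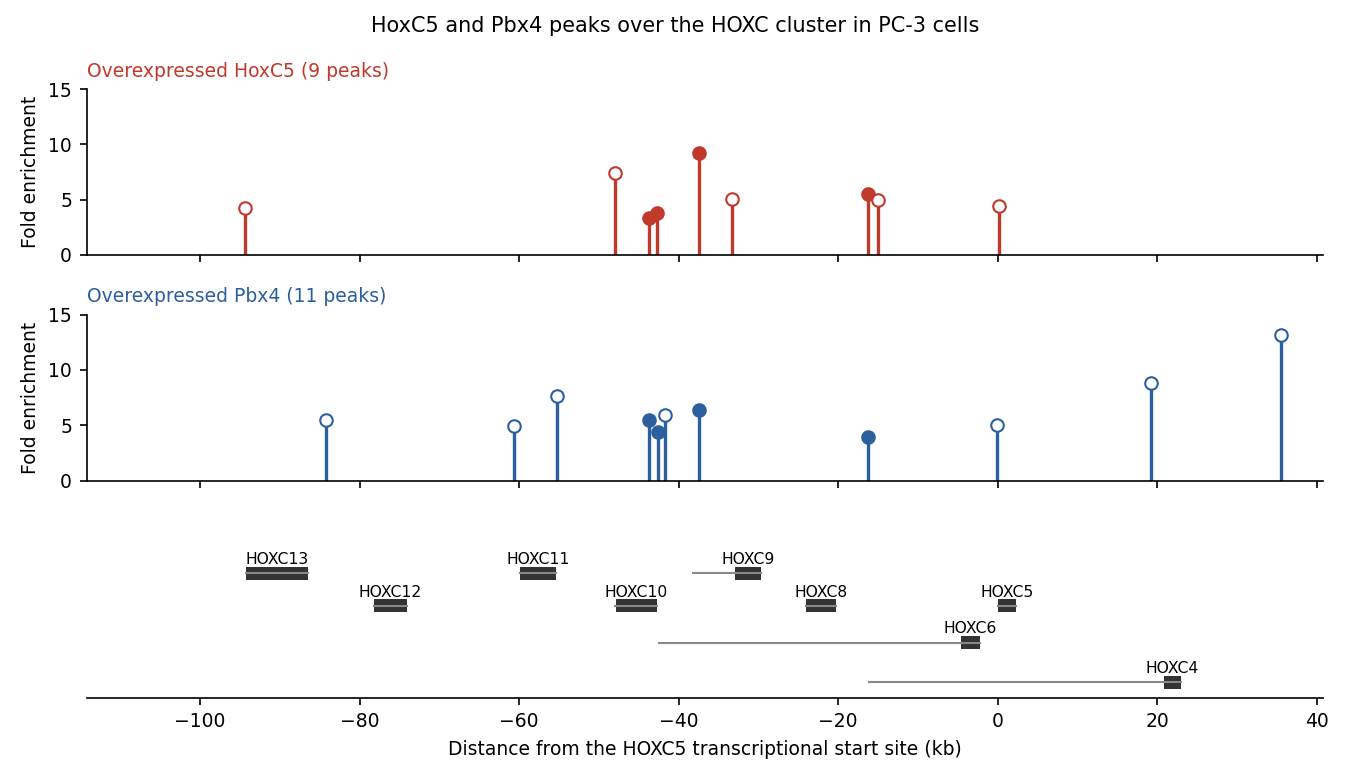
Fold enrichment (vertical axis) of each HoxC5 and Pbx4 peak over the HOXC interval, at the distance of its summit from the HOXC5 TSS in kb. Filled circles mark the 4 peaks of each list that overlap a peak of the other list, open circles the rest, and below them each gene's canonical transcript is a box and its longest extent a line. HoxC5 peaks lie between HOXC10 and HOXC5 except for 1 at HOXC13, and the highest Pbx4 peaks lie around HOXC4.

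The peaks were not spread evenly. The map of peaks over the cluster shows a stretch of 46.3 kb with no HoxC5 peak, from the HOXC13 start to the HOXC10 start, across HOXC12 and HOXC11. The other 8 HoxC5 peaks lay between the HOXC10 start and the first exon of HOXC5, and none lay near the canonical start of HOXC4. The widest gap between Pbx4 peaks was 23.6 kb, between HOXC13 and HOXC11. Beyond the ends of the interval, the nearest HoxC5 peaks were 73.2 kb below (fold enrichment 5.53) and 115 kb above (3.36). One Pbx4 peak lay just outside the rule, 1.32 kb below the lower end (4.08), and the next one above the interval was 149 kb away (18.7).

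Sequences of the 4 shared sites and of the 2 strongest Pbx4 sites are given next to the genes they belong to. They are plus-strand hg19 sequence read at the coordinates shown, and capitals mark words that were searched for on both strands: TGATTGAT, TGATTAAT and TGATTTAT (joint Hox-Pbx sites), TAATTA and TAATGA (Hox), TGACAG (Meis), and TGACTCA or TGAGTCA (AP-1). No word contains another. A match describes the letters alone.

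At HOXC13, which is known for its control of hair keratin genes, HoxC5 had 1 peak with its summit 125 bp upstream of the canonical TSS, inside the antisense RNA gene HOXC13-AS. It was weak, with a fold enrichment of 4.20 and a −log10 q of 3.82. It ranked 87.5% of the way down the list by fold enrichment, where 0% is the strongest peak. Of the 9 HOXC summits it was the only one with a Hox word within 50 bp, a TAATGA.

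Pbx4 had no peak at this start. Its 1 peak given to HOXC13 was 9.97 kb past the TSS, between HOXC13 and HOXC12 (fold enrichment 5.43). HOXC12 itself was nearest to no peak of either list.

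HOXC11 had 2 Pbx4 peaks and no HoxC5 peak. One had its summit 684 bp upstream of the HOXC11 TSS (fold enrichment 4.92) and inside HOTAIR, the antisense RNA gene best known for its reported action on the HOXD cluster, 572 bp from the nearest HOTAIR start. The other lay past the end of HOXC11 (fold enrichment 7.65) and ranked 35.6% down its list. The first was among the weaker peaks of the list, 73.3% down.

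HOXC10, a gene of the lumbar segments, had 3 peaks of each protein, more than any other member by nearest canonical transcript. The HoxC5 peak at its promoter had its summit 122 bp upstream of the canonical TSS and 41 bp from another HOXC10 start, over an exon of the antisense RNA HOXC-AS3. With a fold enrichment of 7.37 it was the second strongest of the cluster, 32.9% down the list, and it overlapped no Pbx4 peak.

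The other HoxC5 peaks at HOXC10 overlapped Pbx4 peaks. In the second coding exon, which encodes the homeodomain, the HoxC5 peak had a fold enrichment of 3.36, the lowest of the cluster and 96.7% down the list, while the Pbx4 peak had 5.48 (62.8% down). Their summits were 56 bp apart and the peaks shared 166 bp. Since homeobox exons resemble each other, the shared stretch was laid against the HOXC5 coding sequence without gaps: 93 of 166 bases (56.0%) were identical at the best position, and the longest run in common was 11 bases. No other stretch is given for comparison, and whether transgene reads contributed to this site was not tested. The stretch is shown because it is the only shared site in coding sequence, with a TGACAG near its edge that is more than 50 bp from either summit.

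Shared site in the HOXC10 homeodomain exon, chr12:54382988-54383153: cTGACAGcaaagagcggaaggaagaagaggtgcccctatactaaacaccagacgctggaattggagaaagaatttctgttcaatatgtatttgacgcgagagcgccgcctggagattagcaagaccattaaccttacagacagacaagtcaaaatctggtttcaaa

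Just past the end of HOXC10, HoxC5 and Pbx4 peaks with fold enrichments of 3.83 and 4.38 shared 223 bp, with summits 81 bp apart. The HoxC5 summit lay 232 bp before the first base of a long HOXC6 transcript, and the Pbx4 summit 151 bp before it. Both peaks belong to HOXC10 by canonical transcript. Counted over all annotated transcripts, the HoxC5 peak stays with HOXC10 and the Pbx4 peak passes to HOXC6. The shared site holds an AP-1 word within 50 bp of the HoxC5 summit.

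Shared site before the long HOXC6 transcript, chr12:54384124-54384346: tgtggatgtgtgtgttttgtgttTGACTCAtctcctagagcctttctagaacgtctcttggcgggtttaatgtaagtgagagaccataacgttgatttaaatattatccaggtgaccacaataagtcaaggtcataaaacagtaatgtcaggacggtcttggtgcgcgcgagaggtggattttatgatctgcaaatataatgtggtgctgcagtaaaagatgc

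Another Pbx4 peak followed without a HoxC5 counterpart (fold enrichment 5.94), ending 380 bp before MIR196A2, one of the genes for miR-196, a microRNA known to target HOX transcripts.

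HOXC9, a gene of thoracic segments, carried the strongest HoxC5 peak of the cluster. It had a fold enrichment of 9.22 and a −log10 q of 16.9, was 401 bp wide, and ranked 17.1% down the list. Its summit lay 147 bp from an alternative HOXC9 start, 4.50 kb upstream of the canonical one, over an exon of the antisense RNA HOXC-AS2. A Pbx4 peak (fold enrichment 6.38) shared 179 bp with it, its summit 36 bp from the same start and 111 bp from the HoxC5 summit. None of the words lay within 50 bp of either summit. The longest stretch of the shared sequence outside untranslated exons is shown, since this is the site with the highest HoxC5 enrichment.

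Shared site at the alternative HOXC9 start, chr12:54389334-54389454: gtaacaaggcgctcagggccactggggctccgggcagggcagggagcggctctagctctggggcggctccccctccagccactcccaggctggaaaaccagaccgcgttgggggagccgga

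A weaker HoxC5 peak (fold enrichment 5.03) stood 478 bp upstream of the canonical HOXC9 TSS and 63 bp from the start of the antisense RNA HOXC-AS1, with no Pbx4 peak. It was the narrowest of the 9, at 139 bp, and held the most CpG dinucleotides, 13 in the 101 bp around its summit.

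Between HOXC8 and HOXC6 lay a pair of HoxC5 peaks whose gene depends on the transcripts counted. The first (fold enrichment 5.53) had its summit 150 bp before the start of the long HOXC4 transcript and overlapped a Pbx4 peak (3.96) by 205 bp, with summits 45 bp apart, the closest pair of the cluster. RefSeq gives HOXC4 and HOXC5 the same 300-base promoter sequence, taken from its newer assembly, and this sequence matched hg19 at 1 place, chr12:54410422-54410721, which both peaks overlapped. By this RefSeq sequence alone the site is a distal promoter shared by HOXC4 and HOXC5. The gene annotation used for the counts gives HOXC5 only 1 transcript, whose start is 16.3 kb farther along. The 30 bases around the HoxC5 summit, which lie in the untranslated part of a HOXC6 transcript, are shown.

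Shared site at the distal HOXC4 and HOXC5 promoter, chr12:54410551-54410580: tttacagctgagtaataaaagtttacgatc

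The second HoxC5 peak of the pair (fold enrichment 4.98) lay farther along with no Pbx4 peak, 900 bp from the nearest start, that of a long noncoding RNA, and had the highest GC content of the 9 windows (73.3%). By canonical transcript both belong to HOXC8, whose start lies 7.80 and 9.03 kb before them. Counted over all annotated transcripts the first belongs to HOXC6 and the second to HOXC4, and HOXC8 keeps no peak. No summit was nearest to the canonical transcript of HOXC6, a gene of the neck and chest segments, in either list.

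At HOXC5 the peaks of HoxC5 and Pbx4 lay side by side without overlap. The Pbx4 peak had its summit 145 bp upstream of the canonical TSS and ended 44 bp before it (fold enrichment 4.98, −log10 q 6.35, 72.2% down its list). The HoxC5 peak began 99 bp farther along, inside the first exon, and had its summit 177 bp past the TSS (fold enrichment 4.44, −log10 q 7.78). The summits were 322 bp apart. The HoxC5 peak ranked 83.2% down its list by fold enrichment and 66.3% down by q, so the site over HOXC5 itself was among the weaker HoxC5 sites. No peak of either list lay on the second exon or on MIR615, the microRNA gene in the HOXC5 intron, whose hairpin starts 235 bp past the end of the HoxC5 peak.

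The shape of the HoxC5 peak on HOXC5 differed from the rest. It was 611 bp wide, where the other HoxC5 peaks of the cluster reached at most 401 bp, and 4.07% of the whole list was at least as wide. It covered all 454 bp of the coding part of exon 1, starting 18 bp before it and ending 139 bp past it, and 74.3% of its bases were coding. The overexpressed cDNA carries this coding sequence, and reads from a transgene and from the gene cannot be told apart in a peak list. Of the 2 coding exons of HOXC5, the HoxC5 list had a peak on 1 and the Pbx4 list on 0. The mirror case is PBX4 in the cells that overexpress Pbx4. There the Pbx4 list had 13 peaks with their summits in the gene and the HoxC5 list 2. Of the 13, 2 had their summits on coding exons (2 of 8 exons) and the other 11 lay off them, with fold enrichments of 3.31 to 20.0, while no HoxC5 peak had its summit on a coding exon. The peak on exon 4 of PBX4 (chr19:19680917-19681138, fold enrichment 3.41) covered the whole exon, starting 1 bp below it and ending 30 bp above it in genome order, with 86.0% of its bases coding. The peak on exon 3 (chr19:19681476-19681644, fold enrichment 2.50) covered 67.3% of that exon and passed its upper end by 2 bp. These ranked 95.9% and 99.8% down the Pbx4 list. How far transgene reads made up the HoxC5 peak on exon 1 of HOXC5 was not tested. Without that peak, an alternative chosen after seeing the data, the cluster had 8 HoxC5 peaks (5.16 per 100 kb). HOXC5 then had 0 by nearest canonical transcript. By the 20 kb rule HOXC5 had 3 HoxC5 peaks with the exon 1 peak counted. The others, the pair between HOXC8 and HOXC6, remain without it.

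HOXC4, the last gene of the cluster and one known in B cells for its part in class switching, carried the strongest Pbx4 sites and no HoxC5 peak near its canonical transcript. One Pbx4 peak had its summit 1.56 kb upstream of the canonical TSS, with a fold enrichment of 8.79 and a −log10 q of 15.8 (25.8% down the list). It held the only joint Hox-Pbx word within 50 bp of a HOXC summit of either list, a TGATTTAT at chr12:54446051-54446058, and 12 CpG dinucleotides. The other lay 14.7 kb past the TSS in FLJ12825, a long noncoding RNA gene, and was the highest Pbx4 peak of the cluster, with a fold enrichment of 13.2, a −log10 q of 24.1 and a width of 615 bp (7.28% down). An AP-1 word lay within 50 bp of its summit. The nearest HoxC5 peak to both was the one on HOXC5 exon 1. The 2 sequences are shown for their words.

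Pbx4 upstream of the canonical HOXC4 start, chr12:54445982-54446132: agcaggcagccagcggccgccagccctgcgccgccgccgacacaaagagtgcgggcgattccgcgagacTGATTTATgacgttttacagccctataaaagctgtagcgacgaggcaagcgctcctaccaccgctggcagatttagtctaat
Pbx4 past HOXC4, chr12:54462277-54462427: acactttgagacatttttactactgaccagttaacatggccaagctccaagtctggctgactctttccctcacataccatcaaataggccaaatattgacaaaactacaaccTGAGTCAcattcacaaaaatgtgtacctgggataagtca

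**Figure D2:**
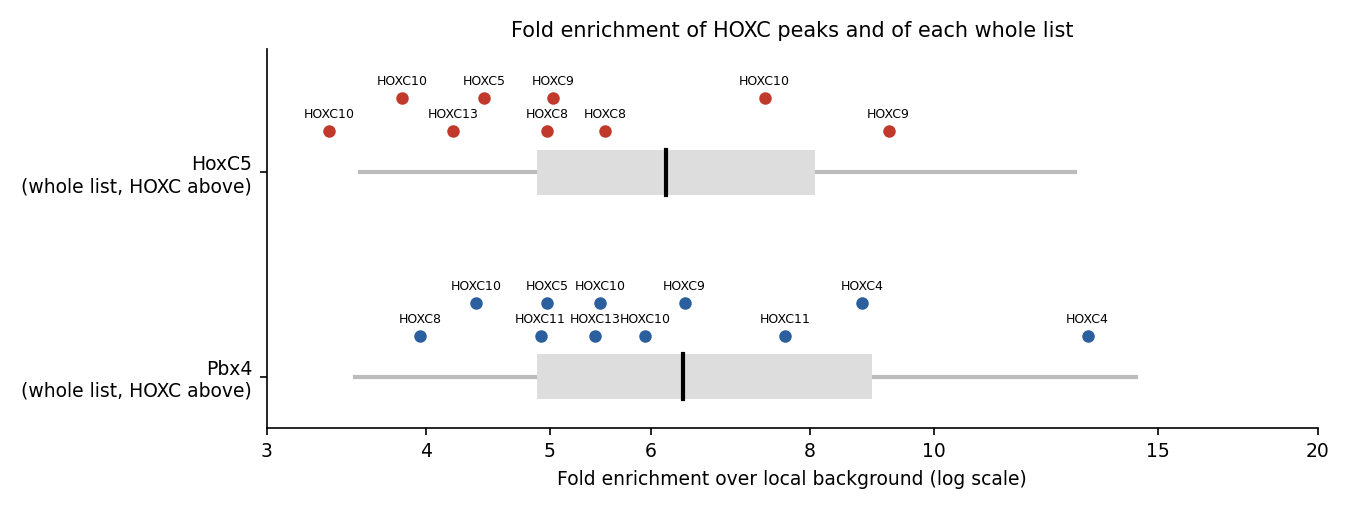
Fold enrichment (log axis) of each HOXC peak, as points named by nearest canonical gene at 2 heights for legibility, above the distribution of its whole list. The grey box spans the middle 50% of the list, the thin line runs from the 5th to the 95th percentile and the black bar is the median. In both lists 7 HOXC peaks lie below the median, and the highest are at HOXC9 for HoxC5 (9.22) and at HOXC4 for Pbx4 (13.2).

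Set beside their own lists, most HOXC peaks lay below the median fold enrichment. HoxC5 values ran from 3.36 to 9.22 with a median of 4.98, against a list median of 6.17, and 2 of 9 exceeded it. Pbx4 values ran from 3.96 to 13.2 with a median of 5.48, against 6.36, and 4 of 11 exceeded it. The plot of fold enrichments shows that the HoxC5 peaks above the median were those at the HOXC10 promoter and the alternative HOXC9 start. For Pbx4 they were the peak past HOXC11, the one at the alternative HOXC9 start and both at HOXC4.

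**Figure D3:**
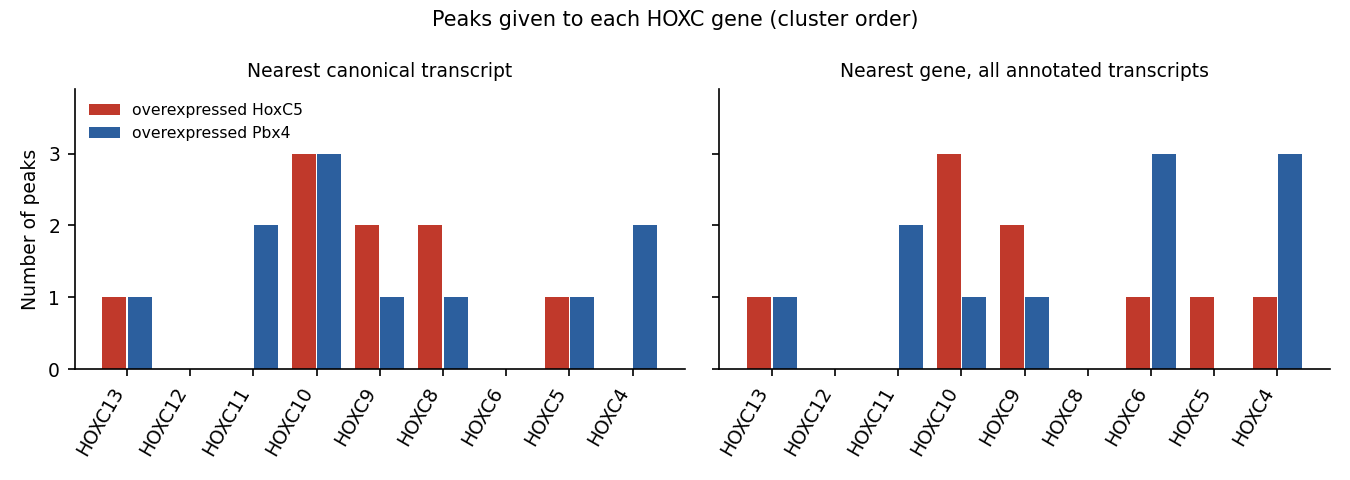
Number of HoxC5 (red) and Pbx4 (blue) peaks given to each HOXC gene, in cluster order, by the nearest canonical transcript (left) and by the nearest gene over all annotated transcripts (right). HOXC10 has 3 HoxC5 peaks in both, whereas the peaks of HOXC8 pass to HOXC6 and HOXC4 on the right.

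By nearest canonical transcript, 5 genes had a HoxC5 peak and 7 a Pbx4 peak. Over all transcripts it was 6 and 6. The counts of HOXC13, HOXC12, HOXC11 and HOXC9 were the same in both ways of counting. HOXC10 kept its 3 HoxC5 peaks but went from 3 Pbx4 peaks to 1, HOXC6 went from 0 and 0 to 1 HoxC5 and 3 Pbx4 peaks, HOXC4 went from 0 and 2 to 1 and 3, and HOXC5 kept its HoxC5 peak but passed its Pbx4 peak to HOXC4, in whose long transcript it lies.

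HoxC5 and Pbx4 had 4 sites in common, and 0 of them lay on the canonical transcript of HOXC5. They made up 44.4% of the HoxC5 peaks of the cluster (exact 95% interval 13.7 to 78.8) and 36.4% of the Pbx4 peaks (10.9 to 69.2). In the whole lists 67.7% of HoxC5 peaks overlapped a Pbx4 peak and 28.5% of Pbx4 peaks a HoxC5 peak. Both HOXC intervals include the value of the whole list. When the Pbx4 list was cut to as many peaks as the HoxC5 list, by q, 3 of its HOXC peaks were left and 1 of the 9 HoxC5 peaks overlapped one of them, which was the site in the HOXC10 homeodomain exon. Among peaks with a fold enrichment of at least 5 in both lists the overlap was 1 of 4 (25%), at the alternative HOXC9 start, and among those with a −log10 q of at least 5 in both it was 1 of 6 (16.7%). With summits required to lie within 100 bp, 3 of the 4 shared sites were left. The shares of the whole lists under these stricter settings are not given here. These HOXC counts are therefore not to be set against the 67.7% of the full lists.

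With no endogenous peak in the interval, overlap of the 9 HoxC5 peaks with endogenous peaks could only be 0. In the whole list 2.91% of overexpressed HoxC5 peaks overlapped an endogenous one. The share was 1.61% (748 of 46555) among overexpressed HoxC5 peaks with a −log10 q in the range of the HOXC peaks, and 6.78% (1153 of 17013) among those above that range. The median fold enrichment was 7.90 for overexpressed HoxC5 peaks that overlapped an endogenous peak and 6.14 for those that did not.

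HoxC5 sites in the cluster lay close to annotated starts. Of the 9 summits 8 (88.9%) lay within 1 kb of an annotated TSS, of a HOXC gene or of an RNA gene between them, against 27.9% of the whole list. For Pbx4 it was 6 of 11 (54.5%) against 12.6%. The cluster is dense in annotated starts, and the rule took only summits in a gene body or within 20 kb of a TSS. The whole lists had no such limit, and neither point was accounted for. The sequence around the summits was rich in CpG. The 101-bp windows of the 9 HoxC5 summits held 3 to 13 CpG dinucleotides with a median of 8.0, and their GC content ran from 39.6% to 73.3% with a median of 57.4%. The whole list had medians of 1.0 CpG and 48.5% GC. Among list peaks within 1 kb of a TSS the medians were 6.0 CpG and 59.4% GC, beside 8.5 and 60.9% for the 8 HOXC peaks there. Pbx4 windows in the cluster had a median of 4.0 CpG (range 0 to 12) and 45.5% GC (38.6% to 61.4%), against 1.0 and 42.6% in the list. For the 6 within 1 kb of a TSS the medians were 4.5 CpG and 54.0% GC, against 1.0 and 45.5% for such peaks of the list.

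**Figure D4:**
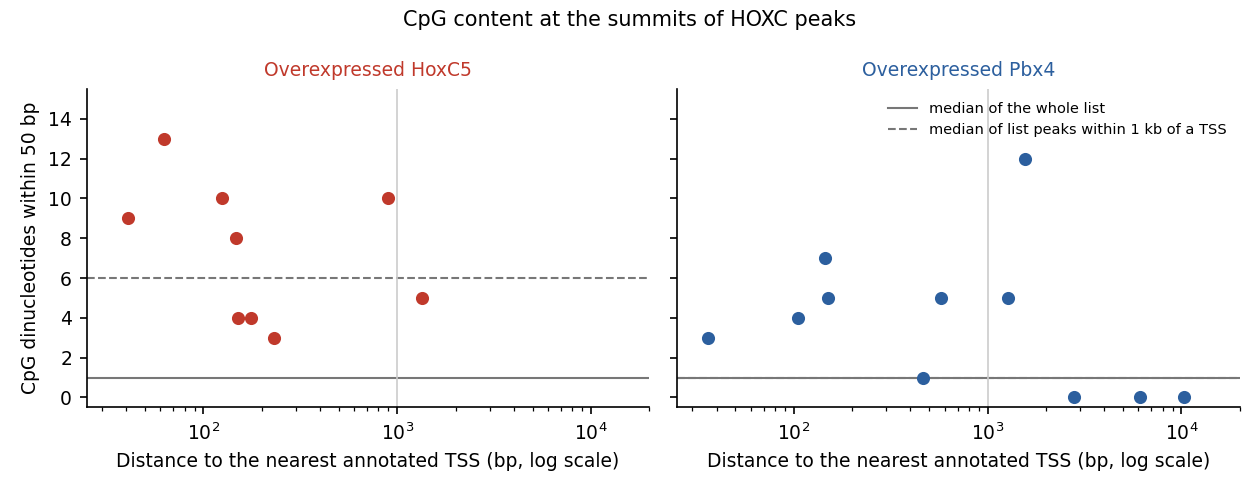
CpG dinucleotides within 50 bp of each HOXC summit (101 bp) (vertical axis) against the distance from the summit to the nearest annotated TSS in bp (log axis), for HoxC5 and Pbx4. The horizontal lines are medians of the whole list (solid) and of its peaks within 1 kb of a TSS (dashed, the same as the solid line for Pbx4), and the vertical line is 1 kb. All 9 HoxC5 points lie above the list median of 1.0, as do 7 of the 11 Pbx4 points.

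The words were counted around each summit. Within 50 bp, 1 of 9 HoxC5 summits held any Hox, Hox-Pbx or Meis word, the TAATGA at HOXC13, against 18.7% of the whole list. Within 100 bp it was 3 of 9, against 31.5% of the list. Of the Pbx4 summits 1 of 11 held one within 50 bp, the TGATTTAT before HOXC4, against 20.4% of the list. TAATGA was present at 8.41% of HoxC5 summits in the whole list, TGACAG at 7.88%, TAATTA at 2.01%, TGATTAAT at 0.807%, TGATTGAT at 0.796% and TGATTTAT at 0.668%. The TGATTTAT at HOXC4 belongs to a word found at 0.912% of Pbx4 summits. An AP-1 word stood at 1 HoxC5 and 1 Pbx4 summit of the cluster, against 20.5% and 18.5% of the lists. With so few summits the absence of a word was not read as a difference.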

How the data were processed

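The study made 4 ChIP-Seq libraries and 4 inputs from PC-3 cells, and no input was analysed. Reads were aligned by the authors with BWA-MEM to the hg19 genome, filtered on mapping quality and cleared of PCR duplicates. Peaks had been called for each library by MACS2 up to a q-value of 0.05. Which MACS2 version and which control library were used is not given in the sources used here. The deposited columns used were the interval, the summit, the fold enrichment (a ratio over local background) and −log10 q. The deposited −log10 p and the score of the authors' caller entered no result. The lists hold no read totals, and the paper gives depth only as an average range over libraries. The depth of each library is thus unknown, and the precision cannot be given from it.

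Genes came from GENCODE 44 lifted to GRCh37. Each peak went to the member whose canonical transcript it lay in or nearest to. Peaks overlapped when they shared at least 1 bp. Densities used chromosomes 1 to 22, X and Y, and shares have exact Clopper-Pearson intervals at 95% that cover counting error only. RefSeq promoters, from a newer assembly, were matched to GRCh37 by sequence alone, and 2 of the 9 genes matched (HOXC4 and HOXC5). The sequences of some named sites are not reported here. The rule was tested on simulated peaks. Python 3.11.15, pandas 2.3.3 and scipy 1.17.1 were used.

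Named were all members, the strongest peak of each member in each list, every peak at HOXC5, RNA genes beside a named peak, and the exons of HOXC5 and PBX4. The members, words and gene lists were chosen with earlier results of these data known. The comparison with list peaks near a TSS, the densities of the stricter lists and the match of the HOXC10 exon to HOXC5 were added after the peaks were seen. Alternatives were a window of 10 or 50 kb, limits of fold enrichment and q, other definitions of overlap, other distances around summits and counting over all transcripts.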

Additional observations from a re-analysis of the deposited data

How the results depend on the processing

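Of 58 values recomputed under an alternative for the lists as a whole, 45 stayed within the limits set for a change and 13 moved. Those that stayed include endogenous values of 0. Under a stricter limit, a smaller window or 1 replicate left out, a value of 0 could not change. The tally is therefore no measure of stability for them. With a fold enrichment of at least 5, HOXC held 4 HoxC5 peaks (2.58 per 100 kb) and 7 Pbx4 peaks (4.52 per 100 kb), and 5.85% of protein-coding genes had a peak of endogenous replicate 1. With a −log10 q of at least 5, the HoxC5 density was 3.87 per 100 kb. With the Pbx4 list cut to the length of the HoxC5 list, 3 HOXC Pbx4 peaks were left and 11.1% of the HOXC HoxC5 peaks overlapped one. That share, 44.4% in the full lists, was 25% with a fold enrichment of at least 5 and 16.7% with a −log10 q of at least 5. Both were inside its exact interval and so counted as not moved. The interval is wide, so staying inside it does not show that the share was stable. The share of the whole list under the same settings is not given here. Within 50 kb of a TSS, 17.1% and 1.47% of protein-coding genes had a peak of endogenous replicates 1 and 2. Within 100 bp of a summit, 3 HoxC5 windows (against 31.5% of the list) held a Hox, Hox-Pbx or Meis word, and within 25 bp an AP-1 word stood at 0 HoxC5 and 0 Pbx4 summits. Without the peak on HOXC5 exon 1, a setting chosen after seeing the data, HOXC held 8 HoxC5 peaks (5.16 per 100 kb). The moves follow from fewer peaks, longer windows or fewer bases. Of 54 counts for single genes 37 stayed and 17 moved, and counting over all transcripts left 11 of 18 in place and moved 7. The share of endogenous HOXC peaks that overlap overexpressed HoxC5 has no value under any setting, since no such peak met the rule. No paired analysis was possible because the numbered samples are the endogenous ChIP and input libraries, the inputs were not used here, and no value comes from a test. Leaving out an overexpressed library leaves its condition with no list. The depth of each library is unknown, so 0 endogenous peaks limits what was called and not what was bound.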
